A study of Mus musculus with 24 samples.

Results

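GABA-A receptor subunits are described here through 7 genes, Gabra2, Gabra3, Gabra4, Gabra5, Gabrb1, Gabrb2 and Gabrd, which were chosen by name, with earlier results of these data known. They are 7 of 49568 gene symbols in the count files and 7 of 19 protein-coding GABA-A receptor genes in the mouse annotation, and all 7 passed the filter on low counts. The data were poly-A RNA-seq counts from whole hippocampus of mice aged 12 weeks, in 4 groups set by genotype and housing. WT mice carried the normal gene for MSK1 (mitogen- and stress-activated kinase 1, encoded by Rps6ka5), and KD mice were homozygous for a point mutation that leaves the kinase dead. SH mice were kept in standard cages, and EE mice were reared from birth in large cages with a running wheel and toys that were moved and renewed, an enriched environment. The comparisons ask whether enrichment changed the hippocampal transcriptome and whether that needed active MSK1.

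After 2 libraries that failed quality control (33B of WT EE and 34B of KD EE) were set aside, 6 WT SH, 5 WT EE, 6 KD SH and 5 KD EE libraries remained. All mice were male, and the WT and KD animals came from separately bred lines on a C57-Bl/6J background, backcrossed from C57-Bl/6n, not from shared litters. The mutation was present in every cell from conception. EE males shared large cages, and the labels do not say which mice shared a cage or litter, so the p-values measure only the spread between these samples. Of the 22 libraries, the study used 17 and removed libraries 2 and 9 (KD), 12, 31B and 35A (WT) because they correlated poorly with their own group. That choice was made on expression, so the 22 are the basis here and the 17 are given beside them. The 5 libraries with a letter in their code are all EE, so that housing and library code cannot be told apart there.

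GABA-A receptors are chloride channels that open when GABA binds, and they carry most fast inhibition in the forebrain. Each is a ring of alpha and beta subunits joined by a gamma or a delta subunit, and the subunits in the ring set where the receptor sits and how it responds to GABA. In hippocampus, receptors with alpha2 gather at synapses, whereas those with alpha5, or with alpha4 and delta, lie mostly outside synapses and carry tonic inhibition. Because whole hippocampus was sequenced, fewer cells of a type and less RNA per cell cannot be told apart.

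Total counts on genes ranged from 8911999 to 56752074 over the 22 libraries, with a median of 30265878, so that 3 counts, the limit that a count of 0 allows, corresponded to 0.0529 to 0.337 CPM (counts scaled to 1000000 per library). Markers of hippocampal principal cells were present in every library: Prox1 of dentate granule cells lay between 81.5 and 137 CPM, Wfs1 of CA1 pyramidal cells between 136 and 224 CPM and Grik4 of CA3 cells between 45.1 and 74.4 CPM. Each of these lower ends was library 5 of KD SH. That library also had the lowest Fibcd1 of CA1 cells (104 CPM against 146 to 221 CPM elsewhere), but not the lowest Iyd of CA3 cells (3.08 CPM). The part of these markers in its values of the 7 genes was not tested. Library 12 of WT SH stood apart in its thalamic markers, with all 9 of the list above every other library and a summed level of 504 CPM against 135 to 187 CPM elsewhere. Library 14 of WT SH was highest for 7 of 8 striatal markers, which summed to 189 CPM against 71.4 to 125 CPM elsewhere. Choroid plexus markers varied widely, from a sum of 37.1 to 5660 CPM over the 22 libraries, with medians of 71.1 CPM in WT SH, 4089 CPM in WT EE, 131 CPM in KD SH and 2216 CPM in KD EE. No choroid plexus marker was at 0 in any of the 22 libraries, and of the thalamic markers Shox2 was at 0 in 5 of them (1, 8, 9, 10 and 13). Rps6ka5 itself averaged 24.9 ± 2.25 (SD, n = 6) CPM in WT SH and 25.5 ± 2.14 (SD, n = 6) CPM in KD SH, which checks nothing, because a point mutation need not alter the count.

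The 7 genes lie on 5 chromosomes, and positions are given on GRCm38. Gabra2 (chr5:70957597-71095849, minus strand), Gabra4 (chr5:71569749-71658308, minus strand) and Gabrb1 (chr5:71658113-72149037, plus strand) share a cluster with Gabrg1. Gabra4 and Gabrb1 run away from each other and overlap at their starts. Gabra5 (chr7:57407672-57510059, minus strand) overlaps genes read from the opposite strand, the antisense gene Gm9962 among them. Gabrb2 (chr11:42419757-42629028, plus strand) lies in a cluster with Gabra6, Gabra3 (chrX:72432681-72656848, minus strand) lies between Gabre and Gabrq, and Gabrd (chr4:155384980-155398112, minus strand) has no other member of the family nearby. The counting did not use strand, so reads where these genes overlap cannot be assigned to one of them, and the counts of Gabra4, Gabrb1, Gabra5 and Gabra3 (which spans a pseudogene, a small nuclear RNA and 2 miRNAs) are uncertain to that extent.

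Promoter windows of 250 bases before and 50 bases after the start were taken from RefSeq (GRCm38.p6), which gave 10 windows for 6 of the 7 genes and none for Gabrd. Windows of 4 genes are shown: Gabrb1 and Gabrb2, whose counts moved together between libraries, Gabra4, whose start adjoins that of Gabrb1, and Gabra2, whose counts spread most. Each is written 5′ to 3′ on the strand of its gene, and capitals mark the motif TATAAA of core promoters, the motif CCAAT of the NF-Y factor, the motif GGGCGG of SP1 and the motif TGACG of the CREB family, each searched on both strands.
Gabrb1, chr5:71657671-71657970, plus strand: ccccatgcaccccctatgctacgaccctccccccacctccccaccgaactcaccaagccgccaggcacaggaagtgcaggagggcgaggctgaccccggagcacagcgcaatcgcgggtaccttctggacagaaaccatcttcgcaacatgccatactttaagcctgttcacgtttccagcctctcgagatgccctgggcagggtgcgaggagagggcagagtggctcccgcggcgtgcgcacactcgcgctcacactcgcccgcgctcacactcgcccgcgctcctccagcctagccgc
Gabrb2, chr11:42420190-42420489, plus strand: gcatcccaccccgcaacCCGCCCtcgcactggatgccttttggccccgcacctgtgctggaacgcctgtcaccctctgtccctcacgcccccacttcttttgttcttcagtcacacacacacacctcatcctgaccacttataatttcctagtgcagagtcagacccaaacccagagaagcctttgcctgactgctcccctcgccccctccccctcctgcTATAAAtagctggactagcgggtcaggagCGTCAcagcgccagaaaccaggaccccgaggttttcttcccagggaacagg
Gabra4, chr5:71658259-71658558, minus strand: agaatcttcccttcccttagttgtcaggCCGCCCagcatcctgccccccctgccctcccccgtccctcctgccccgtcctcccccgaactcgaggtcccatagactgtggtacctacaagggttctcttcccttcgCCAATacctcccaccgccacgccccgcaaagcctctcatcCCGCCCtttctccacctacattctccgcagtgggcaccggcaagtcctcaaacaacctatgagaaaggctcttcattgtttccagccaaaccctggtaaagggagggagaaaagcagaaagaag
Gabra2, chr5:71095800-71096099, minus strand: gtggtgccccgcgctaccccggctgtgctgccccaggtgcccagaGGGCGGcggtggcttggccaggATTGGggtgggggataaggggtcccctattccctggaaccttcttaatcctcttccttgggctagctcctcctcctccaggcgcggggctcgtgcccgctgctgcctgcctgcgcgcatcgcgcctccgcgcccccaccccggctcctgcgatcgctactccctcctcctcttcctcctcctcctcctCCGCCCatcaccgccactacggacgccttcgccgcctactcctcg
The Gabrb1 window shown, the first of 2, holds none of these motifs, although it has 25 CG dinucleotides, more than 81.6% of the 32851 windows of all genes. The Gabrb2 window shown, the first of 3, has TATAAA at -30 from the start and, on its other strand, GGGCGG at -233 and TGACG across the start. Window 2 of Gabrb2 has CCAAT at -71 on its other strand and no other of these motifs, and window 3 holds none of them. TGACG occurs in 20.8% of all windows and in 1 of the 10 windows of these genes, and the full TGACGTCA, which contains it (1.79% of all windows), in none of them. The Gabra4 window has CCAAT at -114 and GGGCGG, on the other strand, at -222 and -74. The Gabra2 window, with 70.0% G or C, has GGGCGG at -205 and, on the other strand, GGGCGG at 6 and CCAAT at -183. Over all windows TATAAA occurs in 13.6%, CCAAT in 37.4% and GGGCGG in 35.7%, and GCGTGGGCG, the motif of EGR factors, in 0.612% but in none of the 10. A match is a description of letters, not a binding site.

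Levels are comparable between genes per length alone, and were set per kilobase of merged exons. Gabra5, the alpha subunit that hippocampus is known for, was the highest of the 7, with 50.8 ± 4.16 (SD, n = 22) CPM per kilobase. Below it 5 genes lay close together. Gabra2 had 19.3 ± 5.99, Gabra3 19.1 ± 2.48, Gabrb2 18.1 ± 2.35, Gabrb1 16.9 ± 1.93 and Gabra4 16.1 ± 1.43 CPM per kilobase (SD, n = 22 each). Neighbours in this run of 5 did not separate beyond their spread, since Gabra2 was above Gabra3 in 13 of 22 libraries, Gabra3 above Gabrb2 in 12, Gabrb2 above Gabrb1 in 17 and Gabrb1 above Gabra4 in 17. Gabrd, the delta subunit, was lowest with 9.56 ± 1.28 (SD, n = 22), below Gabra4 in 22 of 22 libraries. In each of the 4 groups Gabra5 was the highest and Gabrd the lowest of the 7.

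**Figure D1:**
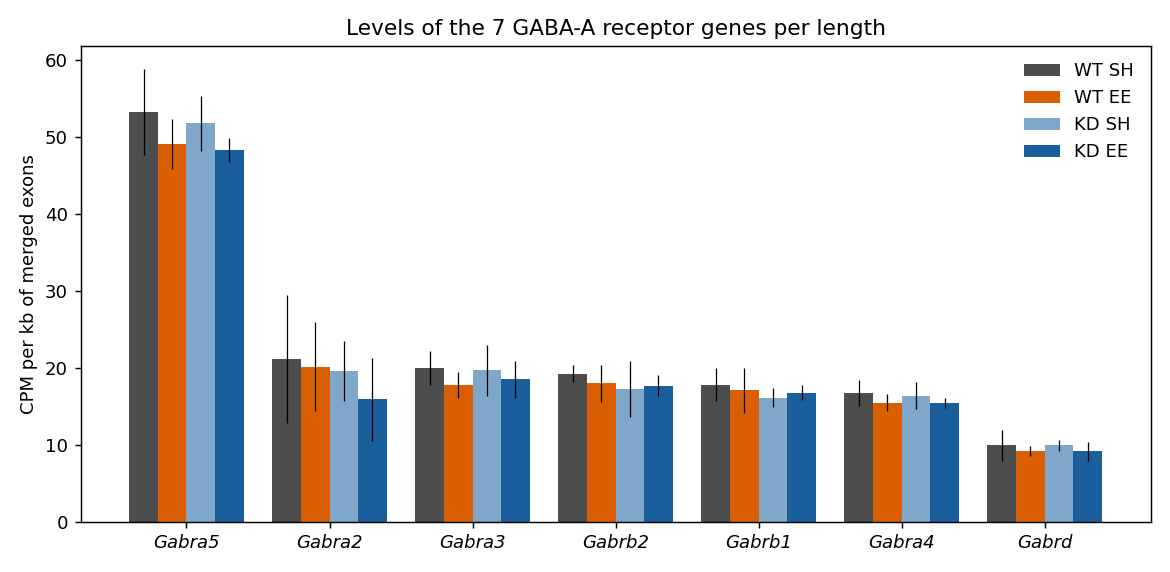
Mean level per kilobase of merged exons (CPM per kb, linear axis from 0) of the 7 genes in the 4 groups, with SD as error bars. Gabra5 (50.8 over all libraries) is the highest in each group, 5 genes lie between 16.1 and 19.3, and Gabrd is the lowest at 9.56.

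The choice of length moved this order. With the longest transcript as length, Gabra5 stayed first with 56.6 and Gabrd last with 10.2 CPM per kilobase, and Gabrb2 rose from the fourth place to the second. With the coding length, which ignores the long untranslated exons of Gabrb1 (merged exons 13838 bases, coding 1422 bases), Gabrb1 came first with 165 CPM per kilobase and Gabra5 followed Gabra2 with 109. Gabrd was the lowest under each of the 3 lengths. These are levels of RNA per length, and assembled receptors were not measured.

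Enrichment changed none of the 7 genes by the thresholds of the study, which asked for a 1.3-fold difference in either direction (0.38 on the log2 scale) and for an adjusted p no higher than 0.05. In edgeR's quasi-likelihood test over 22 libraries, 0 of 7 were called for WT EE against WT SH, where 0% of 18482 genes were called, and 0 of 7 for KD EE against KD SH, where 0% were called. At an unadjusted p of 0.05 or less the counts were again 0 of 7 in WT (8.65% of all genes) and 0 of 7 in KD (9.63%), and DESeq2 also called 0 of 7 in both, where it called 0.0623% of 35333 genes with a p value in WT and 0.0113% in KD. Averaged over the genotypes, 0 of 7 passed where 0.146% of all genes did, and 1 of 7, Gabra5, had an unadjusted p of 0.05 or less where 16.1% of all genes did, and DESeq2 called 0 of 7 and 0.6% of its genes. In the 17 libraries of the study 0 of 7 were called in WT, in KD and over both, where 3.55%, 1.74% and 3.85% of all genes were called, shares at which 0 of 7 does not set these genes apart. With those 17 libraries, 2 of 7 had an unadjusted p of 0.05 or less in WT (Gabra5 and Gabrb1; 13.7% of all genes), 0 of 7 in KD (11.3%) and 2 of 7 over both genotypes (Gabra3 and Gabra5; 17.2%).

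Effect sizes in the 22 libraries were small for most of the genes. In WT all 7 log2 fold changes were below 0, from -0.17 to -0.06 with a median of -0.11, beside a median of 0.01 over all genes tested. KD gave 5 below 0 and 2 above, from -0.29 to 0.07 with a median of -0.08, beside 0.00 over all genes. Under the alternatives 24 of 371 WT values changed sign, in 3 of the 7 genes (Gabra2, Gabrb1 and Gabrd), and 25 of 371 KD values, in 4 genes. Within groups the choroid plexus score (mean log2 CPM of its markers) had r from -0.51 (Gabrb1) to 0.05 (Gabrd) with the 7 genes. The adjusted permutation p ran from 0.229 to 0.988 over 112 relations (n = 22). The 95% interval lay inside 0.38 either way for 6 of 7 genes in WT and 6 of 7 in KD, the exception being Gabra2 in both. In the 17 libraries the WT values ran from -0.39 to 0.01 with a median of -0.19 and only 3 of 7 intervals (Gabra4, Gabra5 and Gabrd) lay inside 0.38 either way, and the KD values ran from -0.29 to 0.03 with a median of -0.11 and 5 of 7 inside. Neither genotype comparison called any of the 7: 0 of 7 for WT SH against KD SH and 0 of 7 for WT EE against KD EE, where 0% of all genes were called in each, and unadjusted p values of 0.05 or less also numbered 0 of 7 in both (5.76% and 2.61% of all genes). DESeq2 called 0 of 7 in both, where it called 0.00566% and 0% of its genes. With the 17 libraries the second of these called 0.00535% of all genes and 0 of the 7. The interaction of genotype and housing, and WT against KD averaged over housing, likewise called 0 of 7 and 0% of all genes, with 0 of 7 at an unadjusted p of 0.05 or less (2.04% and 6.06% of all genes) and 0 of 7 and 0% of all genes in DESeq2. For the interaction only 3 of 7 intervals lay inside 0.38 either way, so that a difference in response of that size between genotypes lay within the interval for Gabra2, Gabra3, Gabrb1 and Gabrb2. The ranges of CPM overlapped for all 7 genes in each of 4 pairwise comparisons, in which 1.16% (WT EE, WT SH), 0.557% (KD EE, KD SH), 0.276% (WT SH, KD SH) and 0.346% (WT EE, KD EE) of all genes did not overlap.

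**Figure D2:**
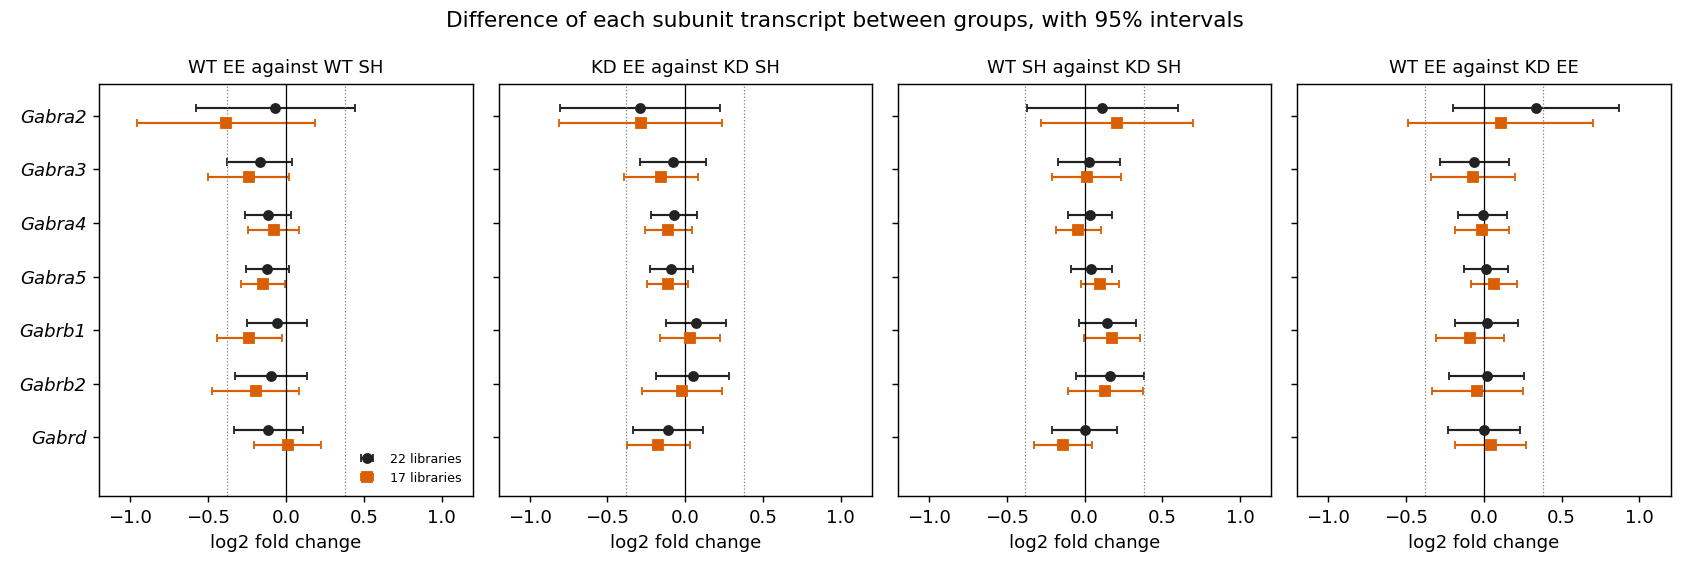
Log2 fold change (horizontal axis) of each gene with its 95% interval in 4 comparisons, for 22 libraries (black) and the 17 of the study (orange), with dotted lines at the threshold of 0.38 either way. All 28 intervals from 22 libraries span 0, and those of Gabra2 are the widest, from -0.58 to 0.44 in WT with 22 libraries.

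Gabra5 encodes alpha5, the extrasynaptic subunit of pyramidal cells. In WT SH it ran from 128 (library 12) through a median of 161 to 177 CPM, and in WT EE libraries 16, 17, 31B, 33A and 35A gave 138, 152, 150, 157 and 134 CPM. KD SH ran from 137 through a median of 154 to 168 CPM, and KD EE libraries 7, 8, 9, 32A and 36A gave 145, 140, 151, 143 and 140 CPM. All 5 KD EE libraries sat inside the KD SH range, with a median of 143 against 154 CPM. In WT, where the medians were 150 and 161 CPM, all 5 EE libraries sat inside the SH range only through library 12, since the other 5 WT SH libraries began at 155 CPM and 4 of 5 EE libraries lay below that. The log2 fold change was -0.12 (SE 0.07) in WT, or -0.17 without library 12, and -0.09 (SE 0.07) in KD. Averaged over genotypes it was -0.10 (SE 0.05), a 0.930-fold level with an interval of 0.870 to 0.995, and an adjusted p of 0.269 in edgeR's quasi-likelihood test.

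This direction held for Gabra5 in all 52 alternatives of the averaged comparison, with log2 fold changes from -0.15 to -0.06 and adjusted p from 0.0385 to 0.574. The 2 adjusted p at or under 0.05 came from edgeR with the thalamic score as a covariate (-0.14, adjusted p 0.0458) and from the 17 libraries without library 5 of KD SH (-0.15, adjusted p 0.0385), and both effects were below the fold threshold. Gabra5 was low where thalamic markers were high. Library 12, the one with thalamic markers at 504 CPM, had the lowest Gabra5 of all 22 libraries (128 CPM against 134 to 177 CPM), and across libraries the within-group deviations of Gabra5 and of the thalamic score had r = -0.80 (permutation p 0.00065, adjusted 0.0243 over 112 relations, n = 22) and Spearman's rho -0.60 (permutation p 0.00358, adjusted 0.134). Without libraries 12 and 13, the farthest from the median of the score, r was -0.55. Without libraries 12 and 14, a choice made after the data were seen, the averaged log2 fold change of Gabra5 was -0.13 (SE 0.04, adjusted p 0.155 in edgeR).

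Gabra2, which encodes a synaptic alpha subunit found on the axon initial segment of pyramidal cells, varied most of the 7. In WT SH it ran from 84.9 (library 12) through a median of 166 to 255 CPM (library 10). WT EE libraries 16, 17, 31B, 33A and 35A gave 159, 80.9, 163, 166 and 201 CPM. In KD SH the range was 99.5 to 178 CPM with a median of 159, and KD EE libraries 7, 8, 9, 32A and 36A gave 170, 161, 106, 81.6 and 89.9 CPM. Every group held libraries near 100 CPM or under and libraries above 150 CPM, so that the groups overlapped almost wholly. The highest library was 3.00 times the lowest within WT SH, 2.48 times within WT EE, 1.79 times within KD SH and 2.08 times within KD EE.

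The within-group SD of Gabra2 was 0.49 on the log2 CPM scale, larger than that of 99.4% of the 10218 genes with a mean of 10 CPM or more, whose median was 0.13. The other 6 genes had SDs of 0.21 (Gabrb2), 0.19 (Gabrd), 0.18 (Gabra3), 0.17 (Gabrb1), 0.12 (Gabra4) and 0.11 (Gabra5), larger than those of 91.3%, 86.0%, 84.3%, 78.9%, 43.6% and 34.3% of these genes. Counting error was much smaller. With 965 to 11123 counts of Gabra2 per library it gave an SD of 0.02, and for Gabrd, the least counted of the 7 (262 to 1686 counts), 0.05. Such errors cover counting only, since reads without molecular identifiers are not independent molecules.

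**Figure D3:**
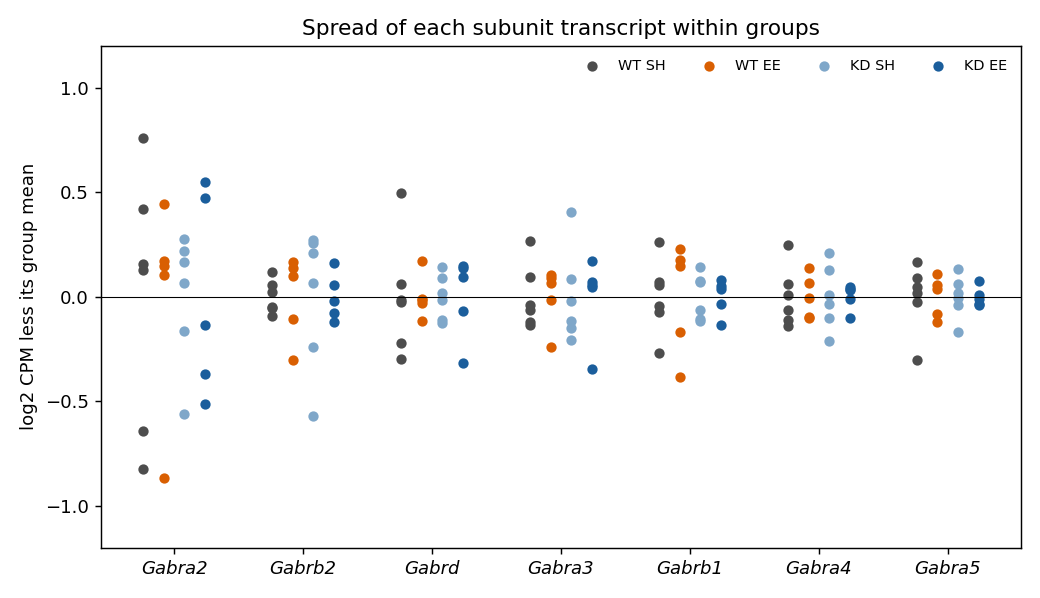
Log2 CPM of each gene less its group mean (vertical axis), 1 point per library, coloured by group, with genes ordered by their within-group SD. Gabra2 scatters most (SD 0.49), with libraries more than 0.5 below the mean in every group, and Gabra5 least (SD 0.11), its lowest point being library 12.

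The log2 fold change of Gabra2 was -0.07 (SE 0.25) in WT and -0.29 (SE 0.25) in KD, with adjusted p of 0.972 and 0.720 in edgeR, and WT EE against KD EE gave 0.34 (SE 0.26, unadjusted p 0.210). Single libraries moved these values: leaving out 1 of the 22 in turn gave -0.20 (without 12) to 0.10 (without 10) in WT and -0.44 (without 7) to -0.18 (without 32A) in KD. In the 17 libraries WT gave -0.39 (SE 0.28, adjusted p 0.595), and -0.57 (without 33A) to -0.13 (without 17) when 1 of those was left out. A 1.3-fold fall lay within the interval in both genotypes (-0.58 to 0.44 in WT and -0.81 to 0.23 in KD), and a 1.3-fold rise within that of WT. The genetic background of single animals at this locus was not analysed here. Of its neighbours, Gabrb1 had r = 0.41 with Gabra2 over the within-group deviations of 22 libraries (permutation p 0.101, adjusted 0.322 over 21 pairs) and rho = 0.34 (permutation p 0.157), and r was 0.01 without libraries 12 and 17. Gabra4 had r = -0.14 with Gabra2 (permutation p 0.581, adjusted 0.761) and rho = 0.05 (permutation p 0.829), and r was 0.09 without libraries 12 and 17.

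Gabra3 encodes an alpha subunit that is rarer in hippocampal principal cells than in many other brain regions. It ran from 71.2 through 75.3 to 93.9 CPM in WT SH and from 66.3 through 72.9 to 101 CPM in KD SH (lowest, median, highest). WT EE libraries 16, 17, 31B, 33A and 35A gave 68.7, 58.8, 72.9, 73.9 and 74.7 CPM, and KD EE libraries 7, 8, 9, 32A and 36A gave 75.0, 75.6, 81.2, 74.5 and 56.7 CPM. Of the WT EE libraries 16 and 17 lay below the WT SH range and the other 3 in its lower part, and in KD EE library 36A lay below the other 4 and below the KD SH range. The log2 fold change was -0.17 (SE 0.10) in WT and -0.08 (SE 0.10) in KD, and its adjusted p was 0.690 and 0.830 in edgeR. Without KD SH library 5, the highest in Gabra3 and the lowest in Prox1, Wfs1 and Grik4, the KD value was 0.01. The KD value was above 0 in 4 of 53 alternatives. In the 17 libraries the averaged value was -0.20 (SE 0.08, adjusted p 0.222).

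Gabra4, the alpha partner of delta in dentate granule cells, was among the steadiest. WT SH ran from 91.9 through 99.5 to 120 CPM (library 12) and KD SH from 85.8 through 98.4 to 115 CPM. WT EE libraries gave 87.4, 93.3, 87.8, 98.2 and 103 CPM and KD EE libraries 93.0, 87.6, 96.8, 96.2 and 96.0 CPM, in the order of libraries used above. In WT, libraries 16 and 31B of EE lay just below the SH range and the other 3 within it, and all 5 KD EE libraries lay within the KD SH range. Its log2 fold change was -0.12 (SE 0.07) in WT and -0.07 (SE 0.07) in KD, with intervals of -0.26 to 0.03 and -0.22 to 0.08, and adjusted p of 0.701 and 0.763 in edgeR. Leaving out 1 of the 22 libraries in turn brought the WT value to -0.06 (without 12) and the KD value to -0.03 (without 5) at the nearest to 0. In the 17 libraries the WT value came to -0.04 without library 16. The log2 fold change was below 0 in all 53 alternatives in WT and all 53 in KD, with 0 calls.

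Gabrd encodes delta, which joins alpha4 and a beta subunit in extrasynaptic receptors of dentate granule cells. WT SH ran from 22.8 through 27.6 to 39.6 CPM and KD SH from 26.05 through 28.5 to 31.4 CPM. WT EE libraries gave 25.7, 29.6, 26.1, 24.3 and 25.96 CPM and KD EE libraries 27.9, 28.9, 28.7, 24.8 and 20.9 CPM. The top of the WT SH range was again library 12, at 39.6 CPM, and the next highest of all 22 libraries was 31.4 CPM. Its log2 fold change in WT was -0.11 (SE 0.11, adjusted p 0.837 in edgeR) and was -0.03 (SE 0.09) without libraries 12 and 14 and 0.01 (SE 0.10) in the 17 libraries. In KD it was -0.11 (SE 0.11, adjusted p 0.756), and -0.15 (without 8) to -0.03 (without 36A) when 1 of the 22 libraries was left out in turn.

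Library 12 thus held the highest Gabra4 and Gabrd and the lowest Gabra5 of the 22 libraries, together with all 9 thalamic markers at their highest, among them Tcf7l2 at 36.5 CPM against 2.63 to 5.44 CPM in the others. The part of the thalamic markers in these values was not tested. Without libraries 12 and 14 the count of genes called among the 7 was 0 in each of the 7 comparisons, where 0.0215% of all genes were called for EE against SH averaged over genotypes and 0% in the other 6.

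**Figure D4:**
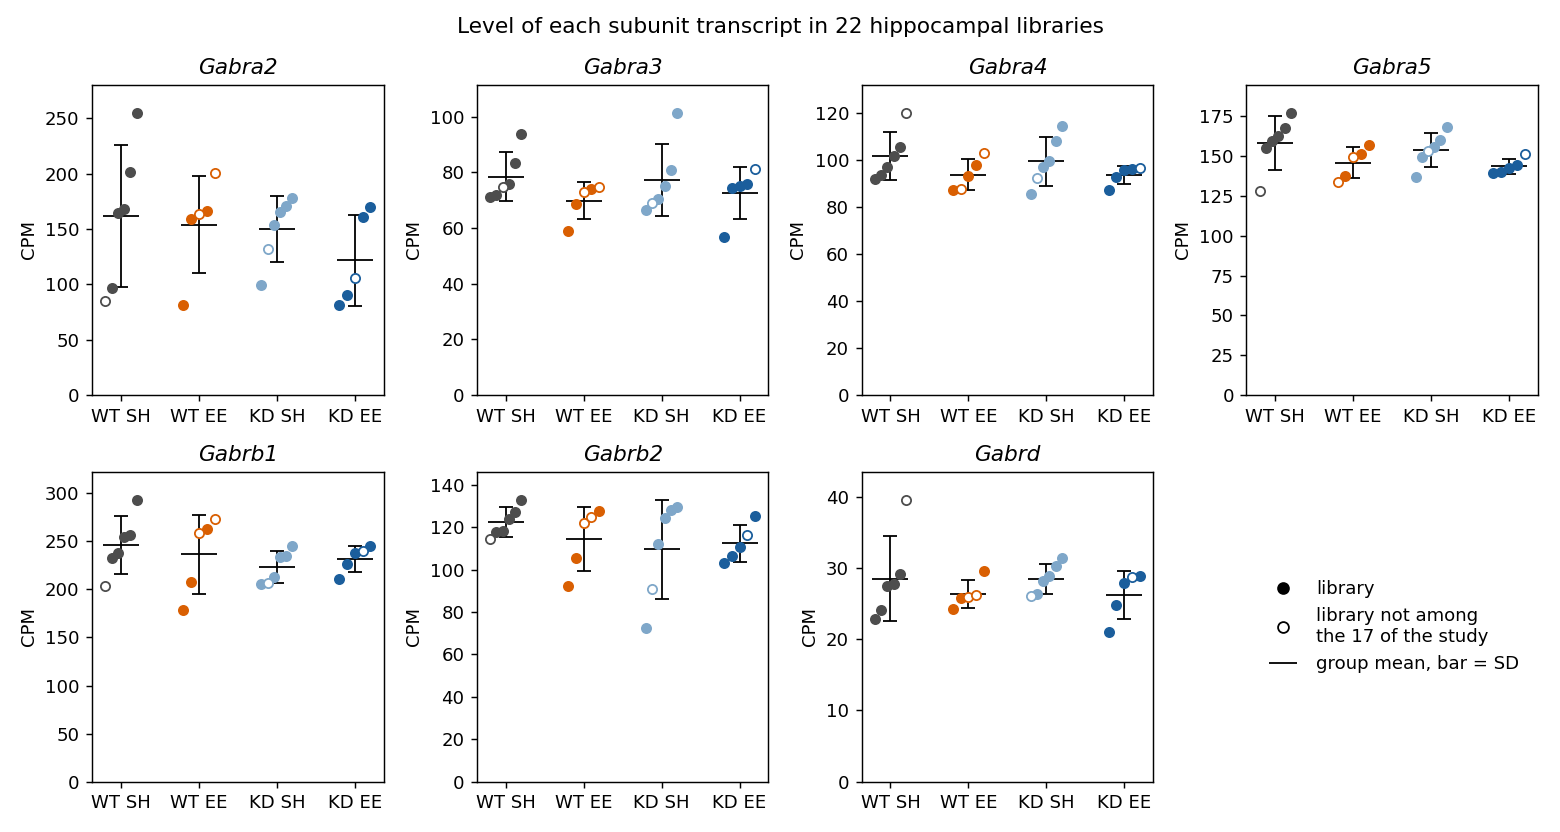
Level of each gene in CPM (vertical axes from 0) in the 22 libraries by group, 1 point per library, with the group mean and SD, and open points for the 5 libraries not among the 17 of the study. The groups overlap for each of the 7 genes, Gabra2 spans 80.9 to 255 CPM, and the open WT SH point at the top for Gabra4 and Gabrd and at the bottom for Gabra5 is library 12.

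Gabrb1 encodes beta1, one of the subunits that with alpha form the GABA binding site. WT SH ran from 203 through 246 to 293 CPM and KD SH from 205 through 223 to 245 CPM. WT EE libraries 16, 17, 31B, 33A and 35A gave 208, 179, 273, 263 and 259 CPM, and KD EE libraries 7, 8, 9, 32A and 36A gave 226, 211, 240, 245 and 238 CPM. In WT EE, libraries 16 and 17 lay low and the other 3, all lettered, lay high. The log2 fold change in WT was -0.06 (SE 0.09, adjusted p 0.915 in edgeR) and in KD 0.07 (SE 0.09, adjusted p 0.838).

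This value for Gabrb1 changed with the libraries kept. The 17 libraries keep 16, 17 and 33A of WT EE, and gave -0.24 (SE 0.10, adjusted p 0.281 in edgeR). They also leave out library 12, the lowest of WT SH at 203 CPM, and the part of each choice in that value was not tested. Without any lettered library the value was -0.35 (adjusted p 0.105). When library 33A was left out of the 17, leaving libraries 16 and 17 alone in WT EE, the log2 fold change was -0.41 (SE 0.10, adjusted p 0.0151 in edgeR, in a fit that called 3.49% of all genes), the 1 call made for any of the 7 genes in any comparison under the alternatives run. Without library 17 the value from the 22 libraries was 0.02 for Gabrb1. WT SH against KD SH gave 0.15 (SE 0.09, adjusted p 0.825), and 0.18 (SE 0.09, adjusted p 0.881) in the 17 libraries. Leaving out 1 of the 22 in turn gave 0.09 (without 14) to 0.20 (without 12). Library 14, with the high striatal markers, had the highest Gabrb1 of the 22 libraries at 293 CPM, and the part of those markers was not tested.

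Gabrb2 encodes beta2, a subunit of synaptic receptors. WT SH ran from 115 through 121 to 133 CPM and KD SH from 72.4 through 118 to 130 CPM. WT EE libraries gave 106, 92.1, 125, 127 and 122 CPM and KD EE libraries 110, 103, 116, 125 and 106 CPM. The lowest values were those of libraries 1 and 2 of KD SH (72.4 and 91.0 CPM) and library 17 of WT EE. Its log2 fold change was -0.10 (SE 0.11, adjusted p 0.873 in edgeR) in WT and 0.05 (SE 0.11, adjusted p 0.919) in KD, and the KD value was below 0 in 17 of 53 alternatives, the 17 libraries of the study among them. The WT value was -0.03 without library 17 in the 22 libraries and -0.33 without 33A in the 17. WT SH was 0.16 (SE 0.11, adjusted p 0.844) above KD SH, and without KD SH library 1 the difference was 0.07 in the 22 libraries and 0.01 in the 17.

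The beta subunit genes moved together between libraries of the same group. Of 21 pairs among the 7 genes, 2 had an adjusted p of 0.05 or less. Gabrb1 and Gabrb2 had r = 0.69 (permutation p 2e-05, adjusted 0.00042 over 21 pairs, n = 22) and rho = 0.81 (permutation p 2e-05), and r was 0.66 without libraries 12 and 17, the farthest from the median. Gabra3 and Gabrb1 had r = 0.55 (permutation p 0.00338, adjusted 0.0355) and rho = 0.63 (permutation p 0.00248), and r was 0.72 without libraries 5 and 36A. This second pair did not pass in the 17 libraries (r = 0.53, permutation p 0.0312, adjusted 0.250) or with no group mean removed (r = 0.51, permutation p 0.0160, adjusted 0.0978), whereas Gabrb1 with Gabrb2 passed in both (r = 0.69, permutation p 0.00023, adjusted 0.00483, and r = 0.72, permutation p 0.00011, adjusted 0.00231). Gabra4 and Gabrb1, whose starts overlap, had r = 0.08 (permutation p 0.724, adjusted 0.845) and rho 0.31 (permutation p 0.20), and r was 0.31 without libraries 6 and 12. Gabrb1 and Gabrd did not pass, with r = -0.54 (permutation p 0.0081, adjusted 0.0567) and rho -0.43 (permutation p 0.0517, adjusted 0.217), and r was -0.30 without libraries 12 and 17.

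Gabrb1 and Gabrb2 also followed how strongly a library favoured long transcripts. For each library a slope of log2 CPM, less the mean of each gene, on the log10 of merged exon length was fitted over genes. Library 1 had the lowest slope (-0.21), followed by libraries 17 (-0.20) and 2 (-0.19), the same libraries that were lowest in Gabrb2, and library 35A the highest (0.18). The within-group deviations of the slope had r = 0.84 with Gabrb1 (permutation p 2e-05, adjusted 0.00168 over 112 relations, n = 22) and r = 0.83 with Gabrb2 (permutation p 3e-05, adjusted 0.00168), with rho 0.88 (permutation p 3e-05) and 0.85 (permutation p 5e-05), and r of 0.83 and 0.78 without libraries 5 and 17. For the other 5 genes r was 0.58 (Gabra3), 0.42 (Gabra2), 0.18 (Gabra4), -0.09 (Gabra5) and -0.39 (Gabrd), with adjusted permutation p from 0.167 to 0.873 (n = 22). The part of the slope in the pairing of Gabrb1 with Gabrb2 was not tested. With the slope as a covariate, an alternative added after the data were seen, edgeR called 0 of 7 genes in each of the 7 comparisons, where 1.66% of all genes were called for EE against SH averaged over genotypes and 0% in the other 6.

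**Figure D5:**
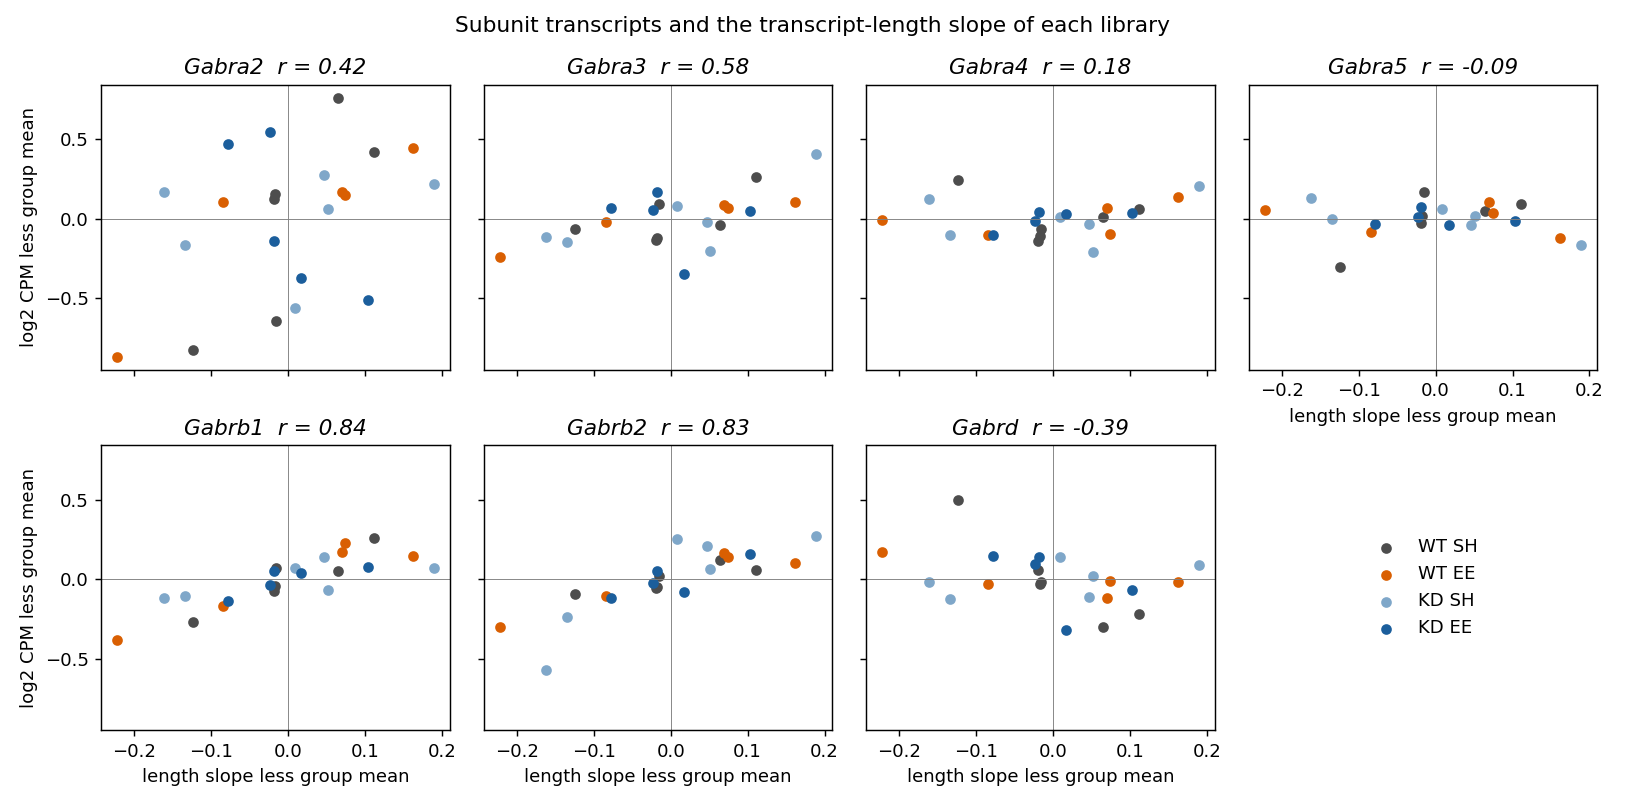
Log2 CPM of each gene less its group mean (vertical axes) against the slope of log2 CPM on log10 transcript length of each library, less its group mean (horizontal axes), for 22 libraries coloured by group. Gabrb1 (r = 0.84) and Gabrb2 (r = 0.83) rise along the slope, and Gabra5 (r = -0.09) is flat.

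The genes whose within-group deviations were most like those of each of the 7 were found among 15021 genes tested with a mean of 1 CPM or more, over 22 libraries, and are given by Pearson's r as a description. For Gabrb2 they were 2900055J20Rik (0.95), Kcnma1 (0.94), Gucy1a2 (0.94), Xkr4 (0.93) and Lnpep (0.93), and for Gabrb1 Chl1 (0.94), Lsamp (0.93), Akap11 (0.92), and Zyg11b (0.92). Gabra3 was most like Ldb2 (0.86), Stau2 (0.84), Ntm (0.84) and Trim44 (0.83), and Gabra4 most like Ptpn4 (0.82), Spock3 (0.78), Pdp1 (0.78), Emc7 (0.77) and Mcf2 (0.77). Gabra5 was most like Mctp1 (0.79), Gpr101 (0.76), Bves (0.75), Ppp1r32 (0.73) and Tdo2 (0.71), of which Tdo2 is a dentate granule cell marker. Gabrd was most like Kcnj9 (0.80), Rnd2 (0.79), Btbd11 (0.77), Lrtm2 (0.77) and Relt (0.75). Gabra2 had the weakest best match of the 7, with Tnfaip8l3 (0.76), 5330417C22Rik (0.74), Jrkl (0.74), Gm6030 (0.73) and Pdcd4 (0.71). None of these genes is a GABA-A receptor subunit.

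Of the 12 other GABA-A receptor genes, 8 passed the filter. For WT EE against WT SH 0 of these 8 were called, where 0% of all genes were called, and 7 lay below 0 with a median log2 fold change of -0.10. For KD EE against KD SH 0 of 8 were called, where 0% of all genes were called, and 7 lay below 0 with a median of -0.09. Genes of receptor clustering and assembly numbered 14, all tested, with 0 called in either comparison (0% of all genes) and medians of -0.01 in WT and 0.01 in KD. Genes of GABA synthesis, transport and the GABA-B receptor numbered 13, all tested, with 0 called (0% of all genes) and medians of -0.05 and -0.02, beside medians of 0.01 and 0.00 over all genes. An unadjusted p of 0.05 or less in edgeR was reached by 5 of these 13 in WT (8.65% of all genes) and 1 of 13 in KD (9.63%). It was reached by 1 of the 8 other subunits and 0 of the 14 clustering genes in each genotype.

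The 3 genes of these lists with the lowest unadjusted p in WT were Gad2, a GABA-synthesising enzyme (log2 fold change -0.25, SE 0.08, adjusted p 0.409), Slc6a11, the GABA transporter of astrocytes (-0.21, SE 0.07, adjusted p 0.414), and Slc6a12, a betaine and GABA transporter (0.96, SE 0.36, adjusted p 0.434). In KD they were Gabrg1 (-0.45, SE 0.12, adjusted p 0.453), Aldh5a1, which degrades the product of GABA breakdown (-0.12, SE 0.05, adjusted p 0.480), and Gabarap (-0.11, SE 0.05, adjusted p 0.523). The mean of Gabrg1 was lower in EE in both genotypes, at 19.9 against 24.8 CPM in WT and 20.4 against 28.1 CPM in KD, with no call in either. In the 17 libraries, where 3.55% of all genes were called for WT EE against WT SH, edgeR called 2 of the 13 genes of GABA synthesis, transport and the GABA-B receptor, Slc6a13 (1.11, SE 0.23, adjusted p 0.00427) and Slc12a2 (0.53, SE 0.13, adjusted p 0.0179). In that fit 9 of 9 choroid plexus markers were called with a median log2 fold change of 4.39, 4 of 6 meningeal markers with 0.95 and 4 of 5 blood markers with 0.91. In KD, where 1.74% of all genes were called, 9 of 9 choroid plexus markers were called with 4.35 and 3 of 6 meningeal markers with 0.82. Of the ependymal markers 2 of 5 tested were called in each genotype, with medians of 0.26 in WT and -0.50 in KD. Of the striatal markers 1 of 8 was called in each, with medians of -0.23 and 0.05. The part of all these markers in the 2 WT calls was not tested. The 7 genes had 0 calls in the same fit.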

How the data were processed

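Poly-A RNA of whole hippocampus was sequenced in 24 libraries, and the authors deposited unnormalised read counts per gene symbol for each. Per the study's methods, reads were trimmed with Skewer, aligned to GRCm38 with STAR 2.5 and counted with HTSeq as unstranded, uniquely aligned reads. A second deposited table, of counts the authors divided by size factors for the 17 libraries, was not used. Rows for reads outside genes or in several genes (14.0% to 18.6% of reads in the 22 libraries) were left out of library sizes.

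Counts of 22 libraries were fitted with edgeR 4.0.16 (filterByExpr, TMM, quasi-likelihood test, Benjamini-Hochberg over 18482 genes, R 4.3.3), with a mean for each of 4 groups. CPM values use TMM factors, and log2 CPM a prior count of 2. Alternatives were the 17 libraries of the study, all 24, no lettered libraries, DESeq2 1.42.0, DESeq2 size factors, scaling to neuron markers, other count filters (none, or 10 counts in every library), marker scores as covariates, only the groups compared, and each library left out. The transcript length slope, the removal of libraries 12 and 14 and the leave-outs from the 17 were added after the data were seen. Permutation tests of correlations were two-sided with 100000 resamples within groups. Where no group mean was removed, libraries were permuted across all 22, and without the 2 farthest libraries fewer resamples were drawn. Positions and lengths come from GENCODE on GRCm38. The fit was tested on simulated data. No 2 of the 24 libraries were identical (0 of 276 pairs).

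The 7 genes and all gene lists were chosen with earlier results of these data known. The genes named are the 7, the 5 most like each (some genes that the rule names are not reported here), Rps6ka5, the marker genes, and the 3 list genes with the lowest unadjusted p in each housing comparison, or those called. Slc6a13 and Slc12a2, called in the 17 libraries, were named after their values were seen.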

Additional observations from a re-analysis of the deposited data

Results flagged for a closer look

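Gabra3 in library 36A of KD EE was 56.7 CPM, while the nearest of the other 4 libraries was at 74.5 CPM. The gap was 0.729 of the range of the group, more than Dixon's 95% critical value for 5 samples. Over 28 sets of values (7 genes in 4 groups) chance flags about 1 in 20.

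Gabrb2 in library 33B, a WT EE library that failed quality control and entered no comparison, was 136 CPM from 1879 counts, above the highest of the 12 SH libraries at 134 CPM on the same scale. The other 6 genes in 33B lay within the range of the 22 libraries. Library 34B held 16442 counts in all, so that 3 counts equal 182 CPM, and its 0 to 5 counts per gene gave no usable level.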

How the results depend on the processing

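The count of calls among the 7 genes was 0 in each of the 7 comparisons and stayed 0 under every alternative run but 1. Over the comparisons and alternatives 0% to 4.13% of all genes were called. Leaving out each library in turn gave 0 to 1 call in WT EE against WT SH, the 1 being Gabrb1 from the 17 libraries without 33A, and the cause was not tested. Of 2576 alternative log2 fold changes of single genes, 2575 stayed uncalled and 1 was called. The fold alone passed 0.38 in others without a call, as for Gabra2 in WT (-0.57 at the lowest). The sign turned in 366 of the 2576, none of which was called. All 84 alternative group means of CPM stayed within 1 SD. The 2 pairs of genes with an adjusted p of 0.05 or less became 1 in the 17 libraries and 1 with no group mean removed, Gabra3 with Gabrb1 being the pair lost in both, and numbered 2 without the farthest 2 libraries, for reasons that were not tested. The order of genes per length depended on the length used, for which no isoform was measured. No paired analysis was possible because each library code occurs in 1 group only. For Gabra2 the within-group SD was 0.49 on the log2 CPM scale beside 0.02 from counting error, no fit at another depth was run, and counts cannot show isoforms or protein.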
